A study of Mus musculus with 8 samples.

Results

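The Oogenesin genes Oog1, Oog2, Oog3 and Oog4 are mouse genes named for their expression in the ovary, and their products belong to the PRAME-like family of leucine-rich repeat proteins. They were taken by symbol, and all 4 were found among the 55385 genes of the deposited count table. RNA was measured in pools of oocytes grown in culture from embryonic stem cells (ESCs) of a C57BL/6 x 129/SvJ background that carried the reporters Blimp1-mVenus and Stella-ECFP. One ESC line was XX after conversion from male cells (sex-converted) and the other was XX from the outset (native). Oocytes were taken at the germinal vesicle stage (GV, arrested in prophase of meiosis I, day 11 of growth culture) or at metaphase II (MII, after 16 hours of maturation, chosen by the first polar body). Every group had 2 libraries, described by the submitters as biological duplicates, and oocytes of every group had developed in aggregates with somatic cells of female gonads from embryonic day 12.5. The column names give 1 ESC line for each origin, so origin and clone cannot be told apart. The name of the sex-converted line holds the letters DsRed and XO, which that of the native line lacks. GV oocytes had been handled in dibutyryl-cAMP and IBMX, which hold meiotic arrest. A GV library was made from 31 to 158 oocytes and an MII library from 35 to 58.

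PRAME-like genes form large, recently duplicated families in rodents, with many members transcribed in the female germ line and the early embryo. Oog1 was described first, as a transcript that appears when oogenesis begins and persists in the egg, and its protein was reported to bind RalGDS, an exchange factor that activates Ral GTPases. Transcription is silent in fully grown mouse oocytes, and in maturation stored mRNAs are partly degraded and partly given longer poly(A) tails for translation. The libraries were made from polyadenylated RNA, so the amount of an mRNA and the length of its tail cannot be told apart in these values.

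Oog2, Oog3 and Oog4 lie on chromosome 4 and Oog1 lies on chromosome 12 (GENCODE M21 on GRCm38, the assembly of mm10). Oog1 (ENSMUSG00000096576.2) occupies chr12:87602688-87608850 on the plus strand. Oog2 (ENSMUSG00000066030.6) occupies chr4:144190719-144196934 on the plus strand, Oog3 (ENSMUSG00000050810.8) chr4:144157557-144162663 on the minus strand and Oog4 (ENSMUSG00000047799.15) chr4:143437164-143450324 on the minus strand. All are annotated as protein coding. From Oog4 to Oog2 the chromosome 4 stretch spans 759771 bases and holds 20 coding genes, of which 3 are the Oogenesin genes and 12 carry a Prame name. Oog3 and Oog2 are direct neighbours, 28055 bases apart, and run in opposite directions. C87977 (Pramel29) follows Oog2 after 9840 bases, and Pramef8 (Pramel12) precedes Oog4 by 16072 bases.

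The bases just upstream of the genes are shown because 4 genes of such unlike behaviour in maturation had closely similar ones. Each line gives the 150 bases before the RefSeq transcript start on GRCm38.p6, read 5′ to 3′ on the gene's own strand. These are chr12:87602515-87602664 (plus) for Oog1, chr4:144190567-144190716 (plus) for Oog2, chr4:144162652-144162801 (minus) for Oog3 and chr4:143450325-143450474 (minus) for Oog4. Capitals mark E-boxes (CANNTG, bound by basic helix-loop-helix factors such as Figla) and the element TAATTG or TAATTA, described for the oocyte homeobox factor Nobox, on either strand.
Oog1: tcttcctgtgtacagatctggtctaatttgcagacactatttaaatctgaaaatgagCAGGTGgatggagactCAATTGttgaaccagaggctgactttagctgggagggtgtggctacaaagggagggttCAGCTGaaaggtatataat
Oog2: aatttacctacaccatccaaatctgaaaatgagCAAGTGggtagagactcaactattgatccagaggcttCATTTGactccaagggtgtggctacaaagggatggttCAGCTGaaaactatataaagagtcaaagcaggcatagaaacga
Oog3: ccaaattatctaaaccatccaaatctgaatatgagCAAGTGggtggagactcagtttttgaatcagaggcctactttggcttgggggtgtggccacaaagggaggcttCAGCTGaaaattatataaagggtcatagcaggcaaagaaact
Oog4: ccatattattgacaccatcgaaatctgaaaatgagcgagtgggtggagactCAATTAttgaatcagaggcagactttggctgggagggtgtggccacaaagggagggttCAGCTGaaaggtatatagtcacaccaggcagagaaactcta

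Of 250 upstream bases 226 to 245 aligned in pairs, and over these, gaps left out, the genes were 76.1% to 83.8% identical. The longest run of letters common to all 4 was TTCAGCTGAAA, a palindromic E-box with its flanks. It began at -21 in Oog1, -45 in Oog2, -44 in Oog3 and -43 in Oog4, counted from the RefSeq transcript start. The GENCODE start of Oog1, at 87602688, lies downstream of its window, which ends at 87602664. That of Oog3, at 144162663, lies inside its window. Positions thus depend on the annotation, and the smaller distances in Oog1 are not shown to be a difference between promoters. Of 32851 RefSeq promoters searched over the same 250 bases, 0.0426% held it on the gene's own strand. With both strands searched, promoters of 13 genes held it. The run was chosen because the 4 Oogenesin genes share it. The other genes with it included Gm2042, a near copy of Oog1, and the relatives Gm13089 (Pramel23), Gm13084 (Pramel26) and C87499 (Pramel32). Gm13403, Gm32920, Gm34439, Kcnj13 and Lcn15, which carry no Prame name, also held it. E-boxes of any kind numbered 3 in Oog1, 4 in Oog2, 3 in Oog3 and 2 in Oog4, and 66.2% of all promoters held at least 1. TAATTG, as its complement CAATTA, stood in Oog3 at -239 and in Oog4 at -99 and not in Oog1 or Oog2, against 7.17% of all promoters. TAATTA was found in none of them, against 4.84% of all promoters. The TATA box letters TATATAA stood at -8 in Oog1, -32 in Oog2 and -31 in Oog3, and 3.04% of promoters held them on either strand. The window of Oog4 did not hold them. E-box and TAATTG letters can overlap, as CAATTG is an E-box, and a match is a description of the sequence and not of a bound site.

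The coding sequences are shown at their start because they bear on how well reads can be assigned. The first 90 coding bases in GENCODE follow, with the start codon in capitals.
Oog1: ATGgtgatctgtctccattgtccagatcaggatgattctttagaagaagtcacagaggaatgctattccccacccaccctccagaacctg
Oog2: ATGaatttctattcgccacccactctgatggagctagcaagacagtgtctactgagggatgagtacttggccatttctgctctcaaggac
Oog3: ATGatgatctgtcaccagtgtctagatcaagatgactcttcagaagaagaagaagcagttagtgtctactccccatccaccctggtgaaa
Oog4: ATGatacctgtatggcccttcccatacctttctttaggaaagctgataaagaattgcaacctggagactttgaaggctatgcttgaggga

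Whole coding sequences of the 4 genes had 496 codons in Oog1, 476 in Oog2, 500 in Oog3 and 430 in Oog4. They were 74.1% to 81.5% identical in pairs, with Oog1 and Oog3 nearest to each other. Identities are over the aligned bases, with gaps and unaligned ends left out. Oog1 had nearer relatives outside the 4. It was 99.9% identical to Gm2042 (chr12:87954080-87960683), 99.1% to Gm10436 (Pramel51, chr12:88175589-88182108), 96.4% to Gm13023 (Pramel25) and 96.1% to C87977. Oog2 was 98.5% identical to Gm13084. Windows of 75 bases, the read length, were compared with all annotated transcripts. Of the windows in the longest transcript, 82% in Oog1, 31% in Oog2 and 13.6% in Oog3 occurred exactly in a transcript of another gene, and 0% in Oog4. Gm2042 held 80.4% and Gm10436 40.1% of Oog1's windows, Gm13084 held 29.8% of Oog2's, and Gm4350, a processed pseudogene on chromosome 14, held 13.6% of Oog3's. No source used here gives the authors' treatment of reads with several matches, so the levels of Oog1 and Oog2 are uncertain, and that of Oog4 is not touched by exact copies.

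Read totals were 10306471 to 14999003 per library. Reads of the 4 genes summed to 0.23% to 0.301% of all reads at GV and 0.347% to 0.37% at MII. Levels below are CPM, the reads of a gene scaled to a common library size with TMM factors, which ran from 1.33 to 1.43 at GV and from 0.714 to 0.733 at MII, so a change is relative to the bulk of other mRNAs. The oocyte markers Zp1, Zp2, Zp3, Gdf9, Bmp15, Nlrp5, Dppa3, Ddx4, Ooep and Npm2 summed to 12751 to 16567 CPM in the 8 libraries, with none at 0. Summed markers of granulosa and cumulus cells were 54.8 to 77.4 CPM at GV and 114 to 134 at MII, with 2 to 7 of 14 genes at 0 in a library. Stromal markers summed to 0.876 to 1.48 CPM at GV and 3.23 to 19.2 at MII, with 3 to 5 of 8 at 0. Those of blood and endothelium summed to 60.1 to 89.4 CPM at GV and 192 to 277 at MII, with 2 to 4 of 6 at 0, and Pecam1 held most of both sums. Within the granulosa list, 3 of 8 tested genes were called higher and 1 lower in each line. In the native line Cyp19a1 (aromatase) went from 17.4 ± 2.85 to 56.5 ± 9.79 CPM, Kitl (Kit ligand) from 4.19 ± 1.46 to 22.9 ± 2.44 and Has2 (hyaluronan synthase) from 0.559 ± 0.00402 to 5.18 ± 0.849 (SD, n = 2), and these 3 rose in both lines. Fshr fell in both, and Foxl2 and Amh had group means of at most 0.477 and 0.0578 CPM. Nr5a2, the most abundant of the list at GV, went from 39.3 ± 11.4 to 26.2 ± 2.88 CPM in the native line. In the sex-converted line it went from 37.8 ± 4.93 to 27.5 ± 3.52 CPM. Has2 and Fshr stayed under 10 CPM in every group. The part of other cells in the stage changes was not tested.

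The 4 genes took 3 courses from GV to MII. Oog3 rose about as much as Oog4 fell, Oog2 fell less, and Oog1 did not pass the test in either line. In the edgeR quasi-likelihood test with Benjamini-Hochberg adjustment over 14929 genes, 1 of 4 was called higher in the native line, where 29.6% of all genes were, and 2 of 4 lower, where 35.7% were. In the sex-converted line the counts were again 1 and 2, against 29.3% higher and 36.2% lower. With most genes of these oocytes called one way or the other, 3 of 4 called is near the background. The median log2 fold change of the 4 was -0.60 in the native and -0.30 in the sex-converted line, beside -0.31 and -0.35 over all genes.

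Oog3 was the most abundant of the 4 in every library. Its level was 914 and 1237 CPM in sex-converted GV, 1268 and 1004 in native GV, 4438 and 4666 in sex-converted MII and 4557 and 4422 in native MII oocytes. All MII libraries lay above all GV libraries, and the lines overlapped at GV. Group means were 1076 ± 228 and 1136 ± 186 CPM (SD, n = 2) at GV in the sex-converted and native line and 4552 ± 161 and 4489 ± 95.4 at MII. The change was 3.95-fold in the native line (log2 1.98, SE 0.178, 95% interval 1.59 to 2.37, edgeR adjusted p = 3.75e-06). It was 4.23-fold in the sex-converted line (log2 2.08, SE 0.179, 1.69 to 2.47, adjusted p = 2.89e-06). Among all genes tested these changes stood at percentiles 86.8 and 89.1.

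Oog4 moved the opposite way. It had 410 and 445 CPM in sex-converted GV, 575 and 447 in native GV, 125 and 115 in sex-converted MII and 147 and 108 in native MII oocytes. No MII library reached a GV library, and 1 native GV library stood above the other 3 of that stage. Means were 427 ± 24.5 (sex-converted) and 511 ± 90.3 (native) at GV and 120 ± 7.26 and 128 ± 27.1 at MII (SD, n = 2). Its log2 fold change was -2.00 in the native line (SE 0.206, -2.46 to -1.55, adjusted p = 9.9e-06), a 4-fold fall. In the sex-converted line it was -1.83 (SE 0.205, -2.28 to -1.38, adjusted p = 1.76e-05), a 3.56-fold fall. Among all genes these changes stood at percentiles 26.2 and 29.2, with 3909 and 4360 genes at a lower value.

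Oog2, the neighbour of Oog3, also fell. Levels were 193 and 241 CPM in sex-converted GV, 271 and 201 in native GV, 112 and 107 in sex-converted MII and 88.5 and 93.6 in native MII oocytes. GV and MII did not overlap in either line. At MII both sex-converted libraries lay above both native ones, but Oog2 was not called between the lines. The share of all genes whose MII libraries separate by line was not counted. The log2 fold change was -1.38 in the native line (SE 0.206, -1.83 to -0.922, adjusted p = 0.000141), 2.59-fold, from 236 ± 49.3 to 91.1 ± 3.62 CPM (SD, n = 2). In the sex-converted line it was -0.99 (SE 0.204, -1.44 to -0.544, adjusted p = 0.0013), 1.99-fold, from 217 ± 34.5 to 109 ± 3.5 CPM. Oog3 and Oog2, side by side on the chromosome, thus changed in opposite directions.

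Oog1 stayed between 92.3 and 166 CPM. Its values were 92.3 and 139 in sex-converted GV, 154 and 111 in native GV, 137 and 166 in sex-converted MII and 148 and 152 in native MII oocytes. The stages overlapped in both lines. The log2 fold change was 0.18 (SE 0.24, -0.347 to 0.711, adjusted p = 0.522) in the native and 0.39 (SE 0.24, -0.137 to 0.921, adjusted p = 0.17) in the sex-converted line, so that a rise of up to 0.921 lies within the interval. Leaving out replicate 2 of the sex-converted GV libraries gave 0.76 with adjusted p = 0.04. Summed with Gm2042 and Gm10436, which share its windows, Oog1 gave -0.15 (adjusted p = 0.556) in the native line. The sum takes all reads of these genes, and Gm10436 had more reads than Oog1 in every library. The sign for Oog1 also turned with the scaling, to -0.72 (adjusted p = 0.017) and -0.54 (adjusted p = 0.0582) when library totals alone were used, a scale on which the median of all genes moved by -0.908 and -0.931. On that scale 2488 genes were called higher and 7609 lower in the native line, in place of 4415 and 5325, and 2376 and 7782 in the sex-converted line, in place of 4374 and 5408. Oog2, Oog3 and Oog4 kept their directions and calls on it.

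**Figure D1:**
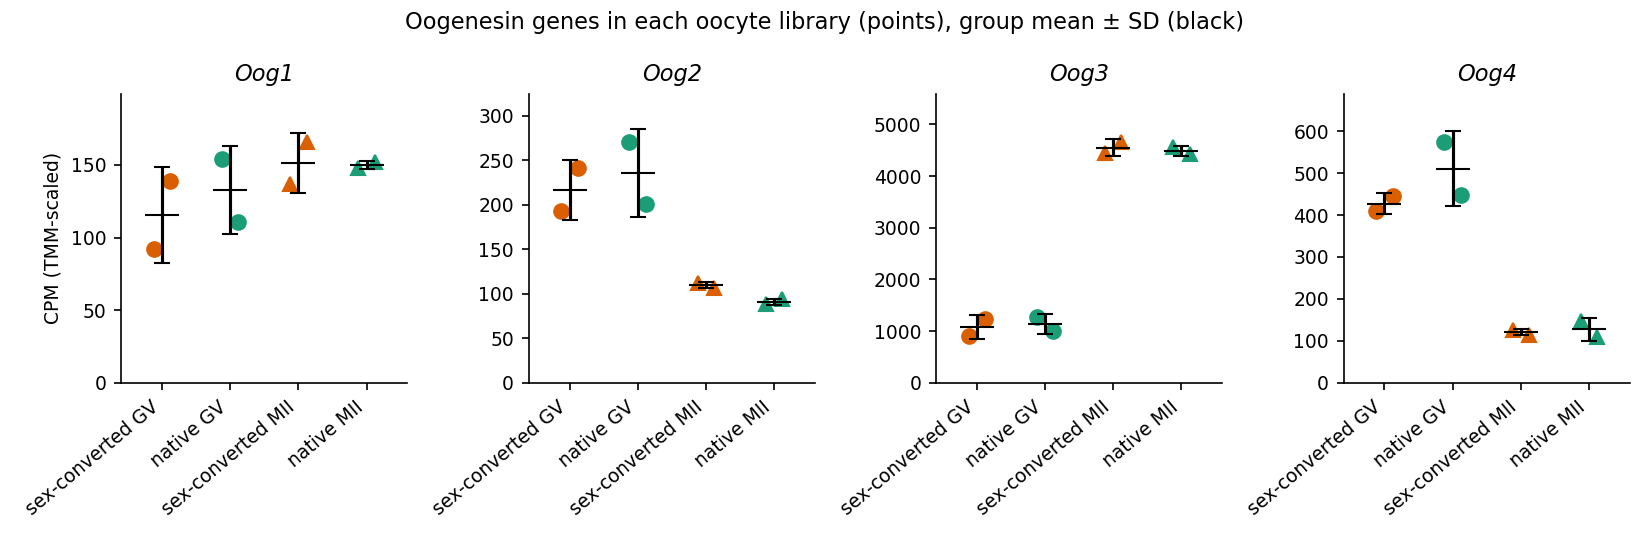
CPM of each Oogenesin gene (y axis, linear from 0, own scale per gene) in sex-converted (orange) and native (green) oocytes at GV (circles) and MII (triangles), 1 point per library, with the group mean ± SD in black (n = 2). Oog3 rises from 914 to 1268 at GV to 4422 to 4666 at MII, Oog2 and Oog4 fall without overlap, and Oog1 overlaps between stages.

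GV libraries of the same line differed from each other. Replicate 1 of the sex-converted and replicate 2 of the native line were the lower ones for all 4 genes. The summed mitochondrially encoded mRNAs split the same way, with 525 and 558 CPM in those libraries and 1672 and 1867 CPM in the other GV libraries, and 5904 to 7271 CPM at MII. Its part in the GV spread was not tested.

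Per kilobase of exon, which allows for length but not for shared windows, the order at GV was the same in both lines. As 82% of Oog1's and 31% of Oog2's windows occur in other genes, the places and ranks of these 2 genes are uncertain. Oog3 came first, with 577 ± 123 (sex-converted) and 609 ± 99.9 (native) CPM per kilobase (SD, n = 2). Oog4 followed with 216 ± 12.4 and 258 ± 45.6, then Oog2 with 87.5 ± 13.9 and 95.2 ± 19.9 and Oog1 with 47.2 ± 13.4 and 54 ± 12.4. No neighbours in that order overlapped between libraries of a group. At MII Oog3 stood at 2441 ± 86.3 and 2407 ± 51.1 CPM per kilobase. Oog1, with 61.9 ± 8.46 and 61.3 ± 1.19, and Oog4, with 60.6 ± 3.66 and 64.4 ± 13.7, overlapped each other, and Oog2 was last with 44 ± 1.41 and 36.7 ± 1.46. Among all genes tested, Oog3 ranked 21 to 30 by this measure in GV libraries and 12 to 14 in MII libraries. Oog4 went from ranks 71 to 96 to ranks 902 to 1149, Oog2 from 281 to 380 to 1399 to 1726, and Oog1 from 584 to 1046 to 968 to 1150. Oog2's exon union of 2481 bases is longer than its longest transcript of 1917 bases, so its separation from Oog1 and Oog4 at MII depends on the length used.

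Ratios of reads between 2 genes within a library need no scaling between libraries, and all 6 such pairs separated the stages without overlap. These ratios were added after the levels had been seen. Oog3 had 2.21 to 2.78 times the reads of Oog4 at GV and 31.1 to 40.8 times at MII, a shift of 3.96 on the log2 scale. Relative to Oog3, Oog2 shifted by -3.22 and Oog1 by -1.74, the latter from 0.101 to 0.121 down to 0.0309 to 0.0357 reads per read of Oog3. Oog1 had 0.225 to 0.312 reads per read of Oog4 at GV and 1.01 to 1.45 at MII, a shift of 2.23, and 0.479 to 0.575 and 1.23 to 1.67 per read of Oog2, a shift of 1.48. The fall of Oog2 was the smaller one, as its reads per read of Oog4 went from 0.451 to 0.543 up to 0.603 to 0.927, a shift of 0.75. In the exact permutation test, two-sided, of 4 GV against 4 MII libraries over both lines, each pair gave p = 0.0286, the smallest this design allows, and 0.0286 after Benjamini-Hochberg adjustment over 6 pairs. The 6 pairs come from 4 genes and are not independent, and their levels had been seen, so this p adds no support. The share of other gene pairs that separate the stages was not counted. In the native line alone 29.6% of all genes were called higher and 35.7% lower. Within 1 line, with 2 against 2 libraries, the smallest possible p is 0.333, and all 6 shifts kept their sign in each line. As shares of the reads of the 4 genes, Oog3 went from 58.4 ± 2.3% (sex-converted) and 56.4 ± 0.73% (native) at GV to 92.3 ± 0.065% and 92.4 ± 0.24% at MII (SD, n = 2). The share of Oog4 went from 23.5 ± 2.8% and 25.3 ± 0.0022% to 2.44 ± 0.23% and 2.62 ± 0.5%, and that of Oog1 from 6.23 ± 0.7% and 6.54 ± 0.35% to 3.07 ± 0.31% and 3.09 ± 0.13%.

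**Figure D2:**
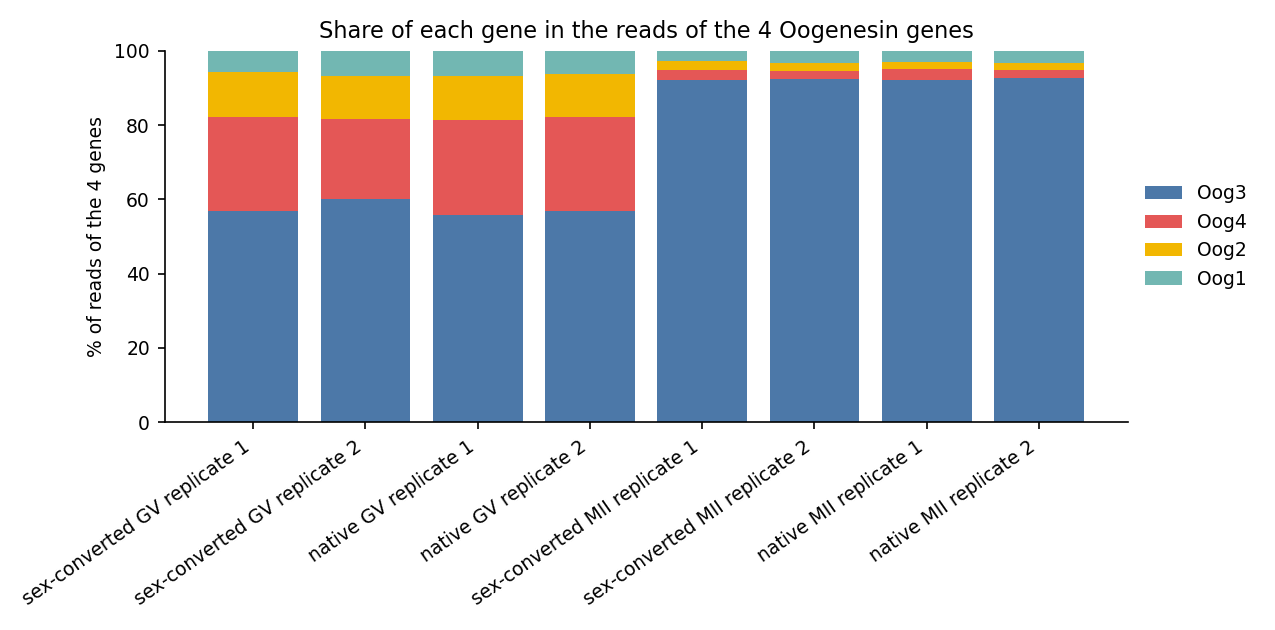
Share of each gene (colours) in the summed reads of the 4 Oogenesin genes (y axis, percent) in each of the 8 libraries (x axis). The mean share of Oog3 is 58.4% and 56.4% in sex-converted and native GV oocytes and 92.3% and 92.4% at MII.

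**Figure D3:**
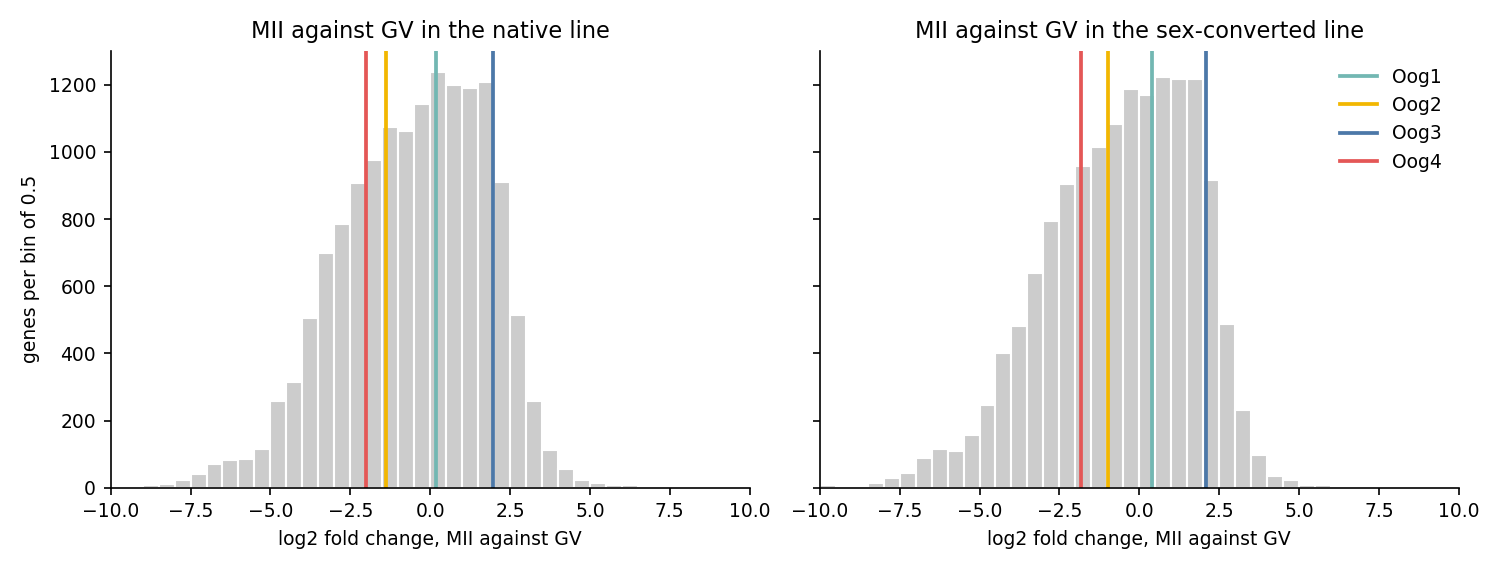
Number of genes (y axis) in bins of 0.5 of the log2 fold change from GV to MII (x axis) over the 14929 genes tested, in the native (left) and sex-converted (right) line, with a vertical line for each Oogenesin gene. Oog3 stands on the upper flank at 1.98 and 2.08, Oog4 on the lower side at -2.00 and -1.83, and all 4 lie within the bulk of genes.

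Between the lines no Oogenesin gene differed beyond the test. At GV the log2 difference, sex-converted against native, was -0.20 for Oog1 (-0.723 to 0.333), -0.12 for Oog2 (-0.565 to 0.321), -0.078 for Oog3 (-0.457 to 0.3) and -0.26 for Oog4 (-0.694 to 0.179). At MII it was 0.015 for Oog1 (-0.515 to 0.544), 0.26 for Oog2 (-0.188 to 0.709), 0.02 for Oog3 (-0.358 to 0.398) and -0.087 for Oog4 (-0.529 to 0.354). All edgeR adjusted p were 1, and none of these 8 unadjusted p was under 0.05 (lowest 0.221 for Oog4 at GV and 0.228 for Oog2 at MII). Over all genes 2 were called at GV (0.0134%) and 2 at MII (0.0134%), 321 and 549 had an unadjusted p under 0.05, and DESeq2 called 5 and 4, none of them an Oogenesin gene. The intervals leave room for differences of up to about 0.72 on the log2 scale. The stage change itself was compared between the lines by an interaction, taken as the sex-converted change minus the native one. It was 0.21 for Oog1, 0.38 for Oog2 (-0.248 to 1.01), 0.098 for Oog3 and 0.17 for Oog4, with adjusted p = 1 for each. Of all genes 0% were called, at 329 with an unadjusted p under 0.05, and DESeq2 called 0.

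Relatives were taken as every other gene whose GENCODE or RefSeq name starts with Prame, 48 genes, of which 22 passed the filter on low counts. The other 26 had at most 160 reads in a library, and 16 of them had 0 in all 8. In the native line 2 of 22 were called higher and 10 lower, with a median log2 fold change of -0.65, and in the sex-converted line 3 and 8, with a median of -0.44. The shares over all genes were 29.6% higher and 35.7% lower in the native line and 29.3% and 36.2% in the sex-converted line, with medians of -0.31 and -0.35. On library totals alone the counts were 2 and 15 in the native line and 2 and 14 in the sex-converted line. Without native MII replicate 2 the 12 relatives called in the native line became 7, and without sex-converted MII replicate 1 the 11 of the sex-converted line became 7. In both lines 8 relatives fell and 2 rose. No relative was called between the lines or by the interaction in edgeR.

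Among the most abundant relatives, C87499 (Pramel32) rose. It had 340 and 414 CPM in sex-converted GV, 448 and 364 in native GV, 1269 and 1249 in sex-converted MII and 1308 and 1324 in native MII oocytes. The rise was 1.70 on the log2 scale in the native line (SE 0.169, edgeR adjusted p = 7.74e-06) and 1.74 in the sex-converted line (SE 0.169, 6.64e-06). Gm13083 (Pramel21), named after its values were seen because it was the other to rise in both lines, went from 2.04 ± 0.104 to 8.16 ± 1.41 CPM in the native line (SD, n = 2). Gm13084, the near copy of Oog2, fell. It had 572 and 679 CPM in sex-converted GV, 787 and 646 in native GV, 187 and 169 in sex-converted MII and 150 and 160 in native MII oocytes. Its log2 fold change was -2.21 in the native and -1.82 in the sex-converted line. C87977, the next gene on the chromosome, fell by 2.42 on the log2 scale in the native line, from 1030 ± 223 to 193 ± 38 CPM (SD, n = 2), and from 860 ± 191 to 201 ± 2.54 CPM in the sex-converted line. The copies named for Oog1 did not move alike. Gm13023, with a mean of 414 CPM per kilobase over all libraries, fell by 1.09 (adjusted p = 0.00231) and 0.67 (adjusted p = 0.0304) on the log2 scale. Gm10436 had -0.37 (adjusted p = 0.161) and -0.067 (adjusted p = 0.802), and Gm2042 had 0.19 (adjusted p = 0.418) and 0.58 (adjusted p = 0.0243). Reads of Gm2042 were 595 to 1217 per library, those of Oog1 1253 to 2852 and those of Gm10436 2241 to 7169. Pramef12 (Pramel13) fell by 0.51 and 0.50, from 689 ± 55.4 to 483 ± 52.4 CPM in the native line. Pramef8, beside Oog4, had 36.8 to 44.6 CPM in all 8 libraries and log2 fold changes of 0.036 and 0.21 (adjusted p = 0.889 and 0.39), next to a gene that fell 4-fold.

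Summing with the genes that share windows moved the values of Oog2 and left those of Oog3 near their own. Each sum took all reads of the added gene, and Gm13084 had more reads than Oog2 in every library. Summed with Gm13084, Oog2 gave -1.95 in the native and -1.56 in the sex-converted line, beside -1.38 and -0.99 alone, and its level in the first sex-converted GV library went from 193 to 765 CPM. Summed with Gm4350, Oog3 gave 1.95 and 2.06. Gm4350 itself had 332 and 1220 reads in sex-converted GV and 1348 and 340 in native GV libraries, a small part of the 14293 to 25425 reads of Oog3 at that stage.

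**Figure D4:**
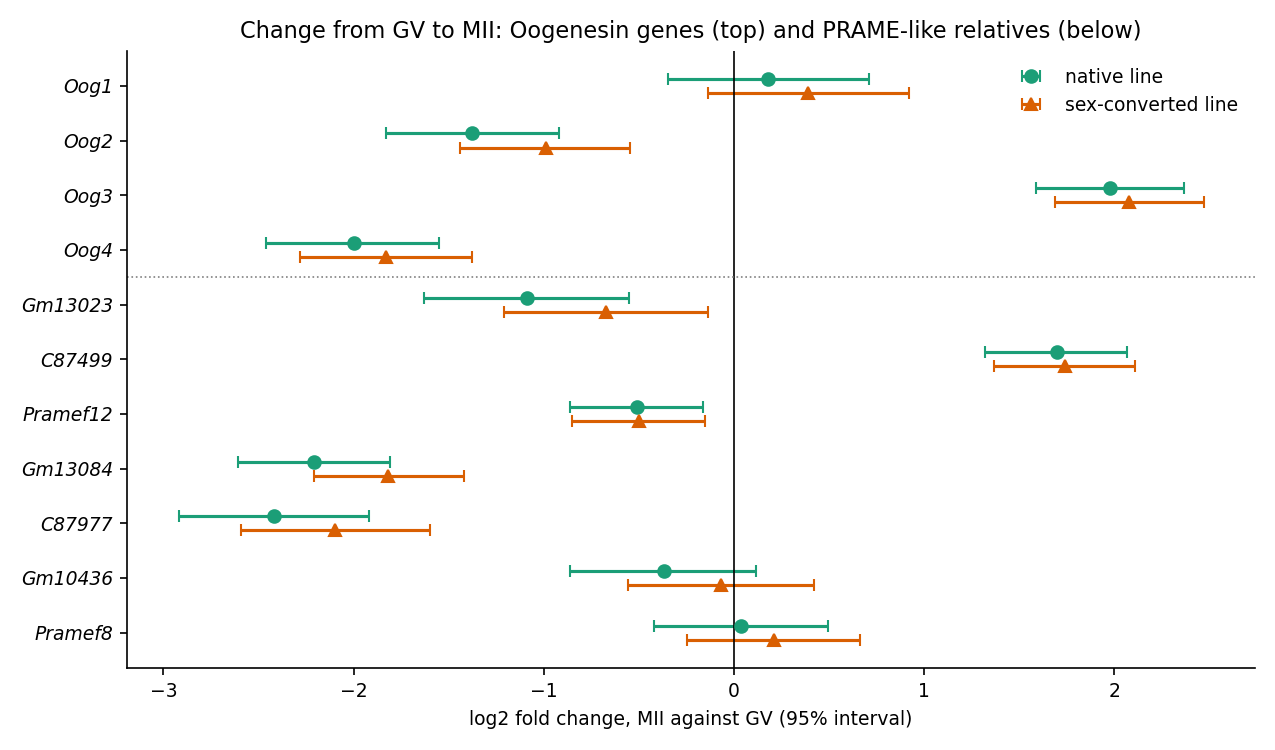
Log2 fold change from GV to MII with its 95% interval (x axis) in the native (green circles) and sex-converted (orange triangles) line for the 4 Oogenesin genes, above the dotted line, and 7 PRAME-like relatives below it, which are the 6 most abundant per kilobase and the neighbours of Oogenesin genes. Oog3 and C87499 lie to the right of 0, Oog2, Oog4, Gm13023, Pramef12, Gm13084 and C87977 to the left, and the intervals of Oog1, Gm10436 and Pramef8 cross 0.

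After the changes had been seen, the 3′ ends were searched on the sense strand, in the last 100 bases of 1 coding transcript per gene. Transcripts tagged as principal in the annotation were taken first, then those with the longest coding sequence. The letters sought were the cytoplasmic polyadenylation element (CPE, TTTTAT or TTTTAAT, bound by CPEB proteins) and the polyadenylation hexamer (AATAAA or ATTAAA). Each line gives 30 bases with these letters in capitals, ending 22 bases before the annotated end in Oog1, 44 in Oog2 and at the end itself (base 1) in Oog3 and Oog4, counted back from the end.
Oog1: TTTTATgagactggcccaatctgttgactg
Oog2: AATAAAtgtgttgactttctggggtgctgg
Oog3: tAATAAAtgtgttaactttgTTTTATtttt
Oog4: taagtgcatacAATAAAtgtgttaactttc

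A CPE began 51 bases before the end in Oog1 and 10 in Oog3, in the latter after the hexamer, and none was found in Oog2 or Oog4. The hexamer AATAAA began 16, 73, 29 and 19 bases before the end in Oog1 to Oog4. Of 19337 coding genes 17.9% had a CPE and 78.6% a hexamer in that window. Of the 2 genes with a CPE, Oog3 rose and Oog1 did not pass the test, with a sign that turned with the scaling, and a set of 4 gives no test. Over tested genes, the 2350 with a CPE had a median log2 fold change of 1.05 in the native and 1.09 in the sex-converted line, and 53.7% and 53.3% of them were called higher. In the 9465 without one, the medians were -0.51 and -0.56, and 27.4% and 26.9% were called higher. This is a description across genes, which are not independent replicates.

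Of the 10 oocyte transcription factors listed, 9 were tested, and 6 were called higher and 3 lower from GV to MII in the native line, with a median of 1.14, and 5 and 3, with a median of 0.76, in the sex-converted line. Over all genes 29.6% were called higher and 35.7% lower in the native line and 29.3% and 36.2% in the sex-converted line, with medians of -0.31 and -0.35. Nobox, a homeobox factor of follicle formation, went from 470 ± 147 to 32.9 ± 14.4 CPM in the native line (SD, n = 2; log2 -3.83, adjusted p = 2.46e-06). Lhx8, a LIM homeobox factor, went from 300 ± 61 to 23.3 ± 3.13 CPM (log2 -3.69). Figla, the third to fall, was named after its values were seen and went from 17.2 ± 5.56 to 0.824 ± 0.184 CPM. Foxo3, which restrains follicle activation, rose from 307 ± 45.4 to 677 ± 90.7 CPM (log2 1.14, adjusted p = 0.000168), Gata4 by 1.37 and Taf4b, a TFIID subunit of germ cells, by 1.22 on the log2 scale. Sohlh2, a helix-loop-helix factor also named after its values were seen, had the largest rise of the list, from 15.4 ± 3.62 to 84.6 ± 16.7 CPM (log2 2.45, adjusted p = 1.57e-05).

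In the Ral list of 14 genes, 11 were tested, with 4 called higher and 5 lower in the native line (median -0.22) and 3 and 5 in the sex-converted line (median -0.38), beside the same 29.6% and 35.7% of all genes in the native and 29.3% and 36.2% in the sex-converted line. Ralgds, the reported partner of the Oog1 protein, fell from 183 ± 21.1 to 6.37 ± 1.65 CPM in the native line (SD, n = 2; log2 -4.83, SE 0.38, adjusted p = 1.66e-06) and by 4.35 on the log2 scale in the sex-converted line. Ralgapb, a subunit of the Ral GTPase-activating complex, rose by 1.06, Exoc2, an exocyst subunit that binds Ral, by 1.88 and Rala by 0.80, the last of which is smaller than the shift that library totals bring. Ralgds thus fell in both lines, while Oog1 went from 132 ± 30.4 to 150 ± 2.91 CPM in the native line, a difference that did not pass the test.

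Each Oogenesin gene had close company among other genes. Likeness was the Euclidean distance of centred log2(CPM + 1) over the 8 libraries, among 7281 genes with a mean of at least 10 CPM. Genes with predicted or clone names were left out, and with them the near copies of Oog1 and Oog2. Nearest to Oog3 were Cd164, a sialomucin (0.134), Paxip1, a chromatin-associated protein (0.158), and Ergic2, a protein of the early secretory pathway (0.161). Oog4 had Aqr, a spliceosome helicase (0.261), Actr8, an INO80 subunit (0.314), and Dlgap5, a spindle protein (0.314). Oog2 had Cfl2, a cofilin (0.203), Noc3l (0.245) and Prepl (0.264). Oog1 had Eif5, a translation initiation factor (0.219), Ddx46, a splicing helicase (0.228), and D16Ertd519e (0.244). Between the Oogenesin genes themselves the distance was smallest for Oog2 and Oog4, at 1.18, and largest for Oog3 and Oog4, at 5.61.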

How the data were processed

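Polyadenylated RNA of 8 pools of oocytes was sequenced as stranded single reads of 75 bases after 13 PCR cycles, per the labels' protocols. The authors deposited 1 table of read counts per gene, not normalized, whose 8 sample columns were all used (0 left out). Trimmomatic 0.38, HISAT2 2.1.0, featureCounts 2.0.0, DESeq2 1.30.1 and mm10 are named in the submitters' processing notes. No source used here gives the strand setting, the annotation release or the treatment of reads with several matches. By gene identifier 55144 rows matched GENCODE M21 and 241, with 0.00326% of reads, did not.

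Counts were tested in edgeR 4.0.16 (R 4.3.3) by the quasi-likelihood method, with TMM, filterByExpr at a minimum count of 10 (14929 genes kept), and 1 fit of all 8 libraries with 4 residual degrees of freedom. Tests were two-sided, and a call was a Benjamini-Hochberg adjusted p under 0.05 over all genes tested. The common biological coefficient of variation was 0.243. The fit was tested on simulated counts. Alternatives used DESeq2 1.42.0, other scalings and filters, a replicate block and each library left out. Exact permutation tests used scipy 1.17.1. P-values measure only the spread between these duplicates, and in edgeR that of a gene is moderated by the spread of all genes tested. Members and lists were chosen with earlier results of these data known. Named relatives were the 6 with the highest CPM per kilobase and those next to an Oogenesin gene. List genes were at most 5 per list by mean CPM, with a mean of at least 10 CPM in a group. All oocyte markers were named, and Has2, Fshr, Foxl2, Amh, Figla and Sohlh2 were named outside this rule. Similar genes were the 3 nearest, without predicted models. The values of 1 list gene are not reported here. Sequences came from RefSeq (GRCm38.p6, all 4 promoters matched) and GENCODE M21. No genome was searched, so unannotated copies were not counted.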

Additional observations from a re-analysis of the deposited data

How the results depend on the processing

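The count of Oogenesin genes called stayed within 1.5 times of its value under all 17 alternatives in each line's stage comparison, at 3 or 4, and at 0 between the lines. Oog2, Oog3 and Oog4 kept their direction and call from GV to MII under each of these. Their log2 fold changes ran from -2.28 to -1.1, 1.08 to 2.2 and -2.91 to -1.78 in the native line and from -1.93 to -0.78, 1.15 to 2.35 and -2.77 to -1.73 in the sex-converted line. Oog1 changed sign on library totals alone (-0.72 native, -0.54 sex-converted). In the native line the sum with all reads of its copies, in which Gm10436 outweighed Oog1, also had the other sign (-0.15). Leaving out 1 library at a time, Oog1 ran from -0.025 to 0.48 in the native and 0.15 to 0.76 in the sex-converted line. The cause was not tested.

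Some differences between the lines changed sign with single libraries. Those of Oog4 at GV (-0.44 to -0.046) and of Oog2 at MII (0.22 to 0.3) and by the interaction (0.14 to 0.6) kept their sign under all alternatives. Leaving out 1 library at a time, the others ran at GV from -0.53 to 0.081 for Oog1, -0.33 to 0.13 for Oog2 and -0.32 to 0.13 for Oog3, and at MII from -0.13 to 0.15 for Oog1, -0.017 to 0.056 for Oog3 and -0.29 to 0.15 for Oog4. The interaction ran from -0.059 to 0.55 for Oog1, -0.11 to 0.35 for Oog3 and -0.031 to 0.41 for Oog4. With a mean of at least 50 reads, Oog1 and Oog3 gave -0.011 and -0.0053 at MII. Every adjusted p in these comparisons was 0.876 or more.

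The replicate numbers did not pair the samples. Deviations of replicate 1 correlated at -0.576 between the GV groups and at -0.0936 to 0.175 elsewhere. With a replicate block 3 Oogenesin genes were called in each line's stage comparison and 0 between lines or by the interaction, and the genes called at MII went from 2 to 0. A crossed pairing of the native GV libraries, chosen after seeing the data, called 10073 and 10174 genes between stages and gave -0.00012 for Oog1 between the lines at MII.

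Per kilobase of the longest transcript, Oog2 stood at 113 (sex-converted) and 123 (native) CPM at GV and 56.9 and 47.5 at MII. In sex-converted MII the 56.9 lay between the Oog1 libraries, at 55.9 and 67.9, so the separation of Oog2 from Oog1 there depends on the length used. Genes called between the lines numbered 13 at GV and 34 at MII, and 3 by the interaction, without a filter on low counts. With 1 library left out, 1 to 3 were called at GV, and 0 to 2 at the later stage. DESeq2 called 5 and 4. Only the 4 libraries of the comparison gave 1 at GV, and library totals or a mean of at least 50 reads gave 0 at MII. Relatives called fell from 12 to 7 without native MII replicate 2 and from 11 to 7 without sex-converted MII replicate 1, and 1 was called at GV without a filter. The shifts in read ratio kept their sign in all 60 repeats, which have too few libraries to reach 0.05.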
